A study of Mus musculus with 28 samples.

Results

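Malat1 and Neat1 are neighbouring genes for long noncoding RNAs that stay in the nucleus, and both were found among the RNAs recovered with the kinase PKR from mouse embryonic fibroblasts. They were chosen by their Ensembl identifiers, ENSMUSG00000092341 for Malat1 and ENSMUSG00000092274 for Neat1, and are 2 of the 30210 features in the deposited tables. The cells had been given back either wild-type PKR (WT) or a mutant (RM) altered in both of the motifs that bind double-stranded RNA. They were mock-treated or exposed to the saturated fatty acid palmitate at 0.1 mM. PKR was pulled down from lysate with an antibody, and the RNA that came with it was fragmented and sequenced. This gave 4 groups: WT mock, WT palmitate, RM mock and RM palmitate. Datasets A and B held 3 libraries of each group, described in the labels as biological replicates, and dataset C held 1. In dataset B the column names include 2hr, which no label explains. All groups are reconstituted cells, and the sources used here give neither their clonal origin nor their PKR level. Neither an input RNA sample nor a precipitate without PKR was analysed here, so a level below is the amount in the precipitate, and the RNA's abundance in the cell, its association with PKR and background carry-over cannot be told apart. Fewer cells and less RNA per cell likewise cannot be told apart.

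PKR is a kinase that binds double-stranded RNA through its 2 double-stranded RNA-binding motifs and, once active, phosphorylates the translation factor eIF2α. Malat1 is one of the most abundant nuclear long noncoding RNAs of mammalian cells and gathers at nuclear speckles, the bodies rich in splicing factors. Neat1 is the RNA scaffold of paraspeckles, and its gene gives a short polyadenylated and a long form from the same start, which the single feature of the files does not separate. Malat1 and the long form of Neat1 do not end in an ordinary poly(A) tail. RNase P cuts each of them upstream of a tRNA-like structure, and the new 3′ end is protected by a triple helix in which an A-rich tract pairs with U-rich motifs.

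On mm9, the build in the file headers, Malat1 lies on chromosome 19 from 5795690 to 5802671 on the minus strand, 6982 bases. Neat1 lies on the same strand from 5824708 to 5845478, 20771 bases, and the features are 22036 bases apart. GENCODE M21 classes both as lincRNA, so they have no coding sequence or UTR. No other feature of the files overlaps either one, and Frmd8, 4223 bases from Neat1 on the same strand, is the only one within 10 kb.

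The 3′ window that holds the triple-helix motifs is shown for both RNAs because it is the known structured element they share. The letters come from the GENCODE M21 transcripts, read 5′ to 3′ with T for U. The Neat1 window is the last 100 bases of the transcript, and the Malat1 window was placed so that the longest stretch shared with it sits at the same offset. Capitals mark every stretch of at least 10 bases that is identical in both windows.
Malat1, positions 6599 to 6698 of 6983: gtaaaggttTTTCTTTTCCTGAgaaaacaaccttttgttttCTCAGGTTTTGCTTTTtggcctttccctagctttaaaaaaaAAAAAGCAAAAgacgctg
Neat1, long form, positions 20672 to 20771 of 20771: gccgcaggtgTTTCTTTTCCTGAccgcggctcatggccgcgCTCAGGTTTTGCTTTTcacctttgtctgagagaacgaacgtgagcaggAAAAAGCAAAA

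The windows shared 3 stretches in the same order, TTTCTTTTCCTGA (13 bases), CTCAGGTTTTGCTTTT (16 bases) and AAAAAGCAAAA (11 bases). The first 2 hold runs of U and the third is a run of A with a GC inside. The 16-base stretch was present in 2 of 33554 long noncoding transcripts of GENCODE M21, those of Malat1 and of the long form of Neat1. The 13-base stretch was in 7 of these transcripts and the 11-base stretch in 105. Malat1 and Neat1 hold all 3 stretches by the way these were picked, and no other of these transcripts held all 3. Over 379446 windows of 100 bases in those transcripts, the 11-base stretch stood in 0.0235% on the transcript strand and in 0.0511% when both strands were searched. The next longest Neat1 transcript in GENCODE M21 holds none of the 3.

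Because PKR binds paired RNA, the longest perfect inverted repeat was also searched in each transcript. In Malat1 it was 13 bases long, cctgagaaaacaa at 6616 to 6628 and ttgttttctcagg at 6633 to 6645, with 4 bases between the arms, and it lies inside the Malat1 window, with each arm overlapping a shared stretch. In the long form of Neat1 it was 20 bases long, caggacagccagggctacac at 11306 to 11325 and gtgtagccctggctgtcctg at 19589 to 19608, with 8263 bases between. Among 333 long noncoding transcripts of at least 5000 bases, the median was 13 bases, 70.0% reached the length in Malat1 and 11.4% reached the length in Neat1. A match of letters says nothing about pairing in the cell or about binding to PKR.

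The libraries held 254762 to 8036622 counts in dataset A, where replicate 2 of RM palmitate was the shallowest, and 2204502 to 7122087 in dataset B. Levels are given as CPM, a feature's share of its library, after TMM scaling, which sets libraries level on the bulk of their features. In dataset B, replicates 2 and 3 of RM palmitate had scaling factors of 0.82 and 0.64, lower than the other libraries of that dataset. All 10 fibroblast markers had counts in all 24 libraries. Markers of other cells were low, given here as CPM of total counts. Of 7 macrophage and lymphocyte markers 4 had counts in some library, at most 2.79 CPM (Cd68), and Adgre1 and Cd3e were at 0 in all 24. Of 5 endothelial markers 4 had counts, Tek in all 24 libraries at 0.308 to 7.85 CPM, and Emcn had 0. All 7 epithelial markers had counts somewhere, with Krt8 up to 13.8 CPM and Epcam at 0 in 18 libraries. In dataset B the summed endothelial markers were at 3.35 to 5.59 CPM in WT mock, below the 6.95 to 8.62 CPM of RM mock, and the summed epithelial markers were at 11.5 to 15.6 CPM in WT mock and 9.40 to 10.7 CPM in RM mock. The part of these cells in the results was not tested.

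In dataset B, both RNAs were scarce in the WT mock precipitates and several-fold higher in each of the other 3 groups. Malat1 stood at 185, 334 and 745 CPM in the WT mock libraries and at 1425, 1752 and 2622 CPM in the WT palmitate libraries. It stood at 1500, 1914 and 2044 CPM in the RM mock libraries and at 2291, 3266 and 3189 CPM in the RM palmitate libraries. The highest WT mock library was below the lowest library of every other group, while WT palmitate and RM mock overlapped and WT palmitate and RM palmitate overlapped. How many of all features separate groups in this way was not counted, here or in the passages below. The group means were 421 ± 290 CPM for WT mock, 1819 ± 284 for RM mock, 1933 ± 619 for WT palmitate and 2915 ± 542 for RM palmitate (SD, n = 3 each).

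Neat1, the paraspeckle scaffold, followed the same order in dataset B. It stood at 48.9, 79.3 and 163 CPM in the WT mock libraries and at 364, 428 and 672 CPM in the WT palmitate libraries. In the RM mock libraries it stood at 385, 440 and 476 CPM, and in the RM palmitate libraries at 671, 952 and 915 CPM. WT mock lay below all other groups, RM mock lay inside the range of WT palmitate, and the top of WT palmitate just passed the bottom of RM palmitate. The group means were 97.2 ± 59.3 CPM in WT mock, 434 ± 46.2 in RM mock, 488 ± 163 in WT palmitate and 846 ± 153 in RM palmitate (SD, n = 3 each).

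As a share of all counts, Malat1 made up 0.0462% ± 0.0326 of the WT mock libraries of dataset B and 0.205% ± 0.0598 of the WT palmitate libraries (SD, n = 3 each). Ranked by count, it was between the 139th and the 691st feature in WT mock and between the 61st and the 96th in WT palmitate. Neat1 made up 0.0107% ± 0.00668 and 0.0517% ± 0.0157, and moved from ranks 705 to 2728 to ranks 187 to 305. The WT mock libraries also differed most among themselves, with the highest 4.02 times the lowest for Malat1 and 3.34 times for Neat1.

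**Figure D1:**
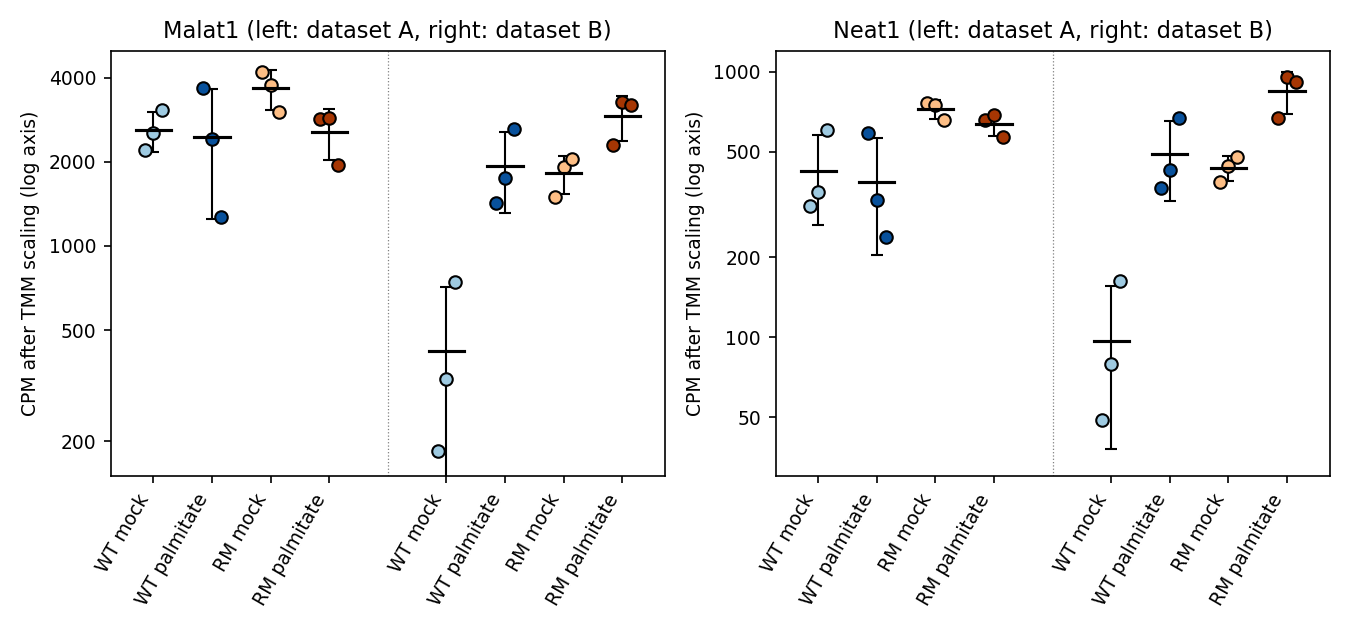
CPM after TMM scaling of Malat1 (left panel) and Neat1 (right panel) on log axes, 1 point per library in the 4 groups of dataset A and the 4 groups of dataset B; horizontal lines are means and bars the SD of 3 libraries. In dataset B the WT mock points, at 185 to 745 CPM for Malat1 and 48.9 to 163 CPM for Neat1, lie below every other point of that dataset.

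With WT PKR, both RNAs rose with palmitate in the precipitates of dataset B. The log2 fold change from WT mock to WT palmitate was 2.20 ± 0.44 (SE) for Malat1, 4.59-fold, with an adjusted p of 0.00806 by edgeR's quasi-likelihood test with Benjamini-Hochberg adjustment. For Neat1 it was 2.33 ± 0.42, 5.03-fold, with an adjusted p of 0.00661 by the same test. Of the 12466 features tested, 15.5% passed the threshold of 0.05 and 9.43% did so as higher. Only 0.578% of the features had a larger log2 fold change than Malat1, and 0.417% had a larger one than Neat1. Both calls held when any of the 6 libraries was left out, and ended when the fit used only the 6 libraries compared, with adjusted p of 0.0966 for Malat1 and 0.0713 for Neat1 by edgeR.

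The authors' deposited table for the same comparison gives log2 ratios of 2.34 for Malat1 and 2.29 for Neat1. Ranked by the score in the column named for the false discovery rate, Neat1 stood 5th and Malat1 8th of the 1967 features past a rate of 0.05 in the authors' deposited table. By the p of the edgeR test above, Neat1 ranked 578th and Malat1 673rd of 12466 features. The scale of that score is not stated and was read as the negative log10 of the rate, multiplied by 10.

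With RM PKR, neither RNA passed the test for palmitate in dataset B, where 7.53% of features did. The log2 fold change from RM mock to RM palmitate was 0.68 ± 0.42 for Malat1 (adjusted p = 0.331, edgeR) and 0.96 ± 0.40 for Neat1 (adjusted p = 0.161, edgeR). After TMM scaling the 3 RM palmitate libraries lay above the 3 RM mock libraries for both RNAs, but the share of all features that do so was not counted. As a share of all counts the groups overlapped for Malat1, with replicate 3 of RM palmitate at 0.203% and replicate 3 of RM mock at 0.209%. For Neat1 they stayed apart, with the lowest RM palmitate library at 0.0582% and the highest RM mock library at 0.0486%. In the fit of the 6 libraries alone Neat1 passed (0.97, adjusted p = 0.0464, edgeR), as it did with the replicate number as a block (0.95, adjusted p = 0.0193, edgeR). Over the 15 alternatives the values ran from 0.27 to 0.82 for Malat1 and from 0.56 to 1.10 for Neat1. One of the alternatives left out replicates 2 and 3 of RM palmitate, the pair with low scaling factors. That fit keeps 1 RM palmitate library and assumes that it varies like the other groups, so the loss of a call in it says little. The scaling touches this comparison, because total counts as the scale put the shift of the median feature at -0.37. The authors' deposited table gives 0.66 for Malat1 with a score of 5.36, and 0.91 for Neat1 with a score of 17.1, which is past the score for a rate of 0.05.

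The difference between the WT and the RM response to palmitate in dataset B was 1.52 ± 0.60 on the log2 scale for Malat1 and 1.37 ± 0.56 for Neat1. The unadjusted p were 0.0283 and 0.0379 and the adjusted p 0.248 and 0.277 by edgeR, so neither passed the threshold, and 0% of all features did. At an unadjusted p under 0.05 there were 2011 features, and DESeq2 called 350, neither of these RNAs among them. Of the 12 fits with 1 library left out, 1 passed for each RNA, that without replicate 3 of WT mock, the highest of its group. There the difference was 2.24 (adjusted p = 0.0299, edgeR) for Malat1 and 1.99 (adjusted p = 0.0302, edgeR) for Neat1.

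Between mock-treated cells of dataset B, both RNAs were lower with WT than with RM PKR. The log2 fold change of WT mock against RM mock was -2.11 ± 0.44 for Malat1 (adjusted p = 0.0107, edgeR) and -2.16 ± 0.42 for Neat1 (adjusted p = 0.0100, edgeR). Of all features, 14.1% passed and 7.88% did so as lower in WT. This comparison and the WT palmitate comparison share the 3 WT mock libraries, so they are not independent of each other. Both calls held with any of the 6 libraries left out and ended in the fit of the 6 libraries alone, with adjusted p of 0.0900 and 0.0630 by edgeR. After palmitate, WT against RM gave -0.59 ± 0.42 for Malat1 (adjusted p = 0.426, edgeR) and -0.79 ± 0.40 for Neat1 (adjusted p = 0.252, edgeR), where 7.81% of features passed. With total counts as the scale the median of all features moved by 0.36 in that comparison.

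**Figure D2:**
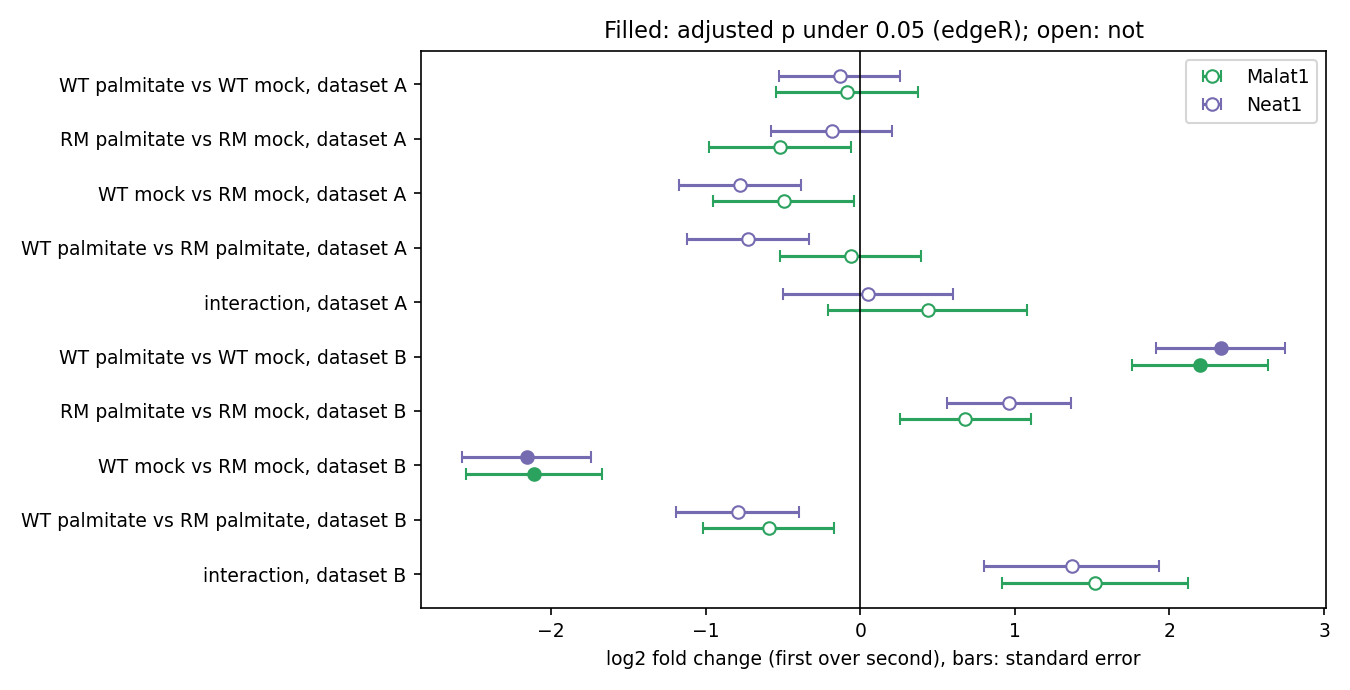
Log2 fold changes (first group over second, bars are standard errors) of Malat1 and Neat1 in the 5 comparisons of each of datasets A and B; filled points passed an adjusted p of 0.05 by edgeR and open points did not. The 4 filled points are the WT palmitate response (2.20 and 2.33) and the WT against RM mock difference (-2.11 and -2.16) of dataset B.

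In dataset A, WT mock precipitates already held Malat1 at 2202, 2544 and 3056 CPM, against 3669, 2407 and 1273 CPM in WT palmitate. RM mock libraries held 4207, 3777 and 3024 CPM and RM palmitate libraries 2855, 2865 and 1954 CPM. WT palmitate spanned the ranges of WT mock and RM palmitate, and RM mock overlapped WT mock by 1 library. The means were 2449 ± 1199 CPM in WT palmitate, 2558 ± 523 in RM palmitate, 2600 ± 430 in WT mock and 3669 ± 599 in RM mock (SD, n = 3 each), and no neighbours in that order were separated.

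Neat1 in dataset A stood at 313, 351 and 602 CPM in WT mock and at 586, 328 and 239 CPM in WT palmitate. It stood at 762, 752 and 657 CPM in RM mock and at 660, 686 and 567 CPM in RM palmitate. All 3 RM mock libraries lay above all 3 WT mock libraries, while RM palmitate and WT palmitate overlapped. The means ran from 384 ± 180 CPM in WT palmitate to 422 ± 157 in WT mock, 638 ± 62.7 in RM palmitate and 724 ± 57.9 in RM mock (SD, n = 3 each), with overlap between each group and the next.

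Neither RNA passed the test in any of the 5 comparisons of dataset A. The palmitate response was -0.09 ± 0.46 for Malat1 and -0.13 ± 0.39 for Neat1 with WT PKR, where 0.335% of features passed, and without replicate 3 of WT palmitate, the lowest of its group, they were 0.28 and 0.18. Without replicate 3 of WT mock they were 0.09 and 0.25, and without replicate 2 of WT palmitate that of Neat1 was 0.02. It was -0.52 ± 0.46 and -0.18 ± 0.39 with RM PKR, where 0.477% passed. WT against RM mock gave -0.50 ± 0.46 for Malat1 (adjusted p = 0.602, edgeR) and -0.78 ± 0.39 for Neat1 (adjusted p = 0.296, edgeR), where 3.74% passed. WT against RM palmitate gave -0.06 ± 0.46 and -0.73 ± 0.39, where 3.43% passed and where total counts as the scale moved the median of all features by -0.40. The sign for Malat1 there turned to 0.27 without replicate 3 of WT palmitate, 0.04 without replicate 1 of RM palmitate and 0.03 without replicate 2 of RM palmitate. The difference between the WT and the RM response was 0.43 ± 0.65 and 0.05 ± 0.55, and 0% of all features passed, with 469 at an unadjusted p under 0.05 and 0 called by DESeq2.

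The WT palmitate response was set against itself between datasets in a fit of all 24 libraries. It was larger in dataset B than in dataset A by 2.41 ± 0.50 on the log2 scale for Neat1 (adjusted p = 0.0417, edgeR) and by 2.23 ± 0.59 for Malat1 (adjusted p = 0.0835, edgeR), where 0.189% of features passed. In the same fit, averaged with equal weight over both datasets, WT minus RM was -0.81 ± 0.21 for Malat1 (adjusted p = 0.00497, edgeR) and -1.11 ± 0.18 for Neat1 (adjusted p = 6.16e-05, edgeR), where 25.5% of features passed and 13.1% did so as lower in WT. These 2 calls and that of the averaged palmitate response of Neat1, 0.75 ± 0.18 (adjusted p = 0.00388, edgeR), held under all 32 alternatives. The averaged palmitate response of Malat1 was 0.57 ± 0.21 (adjusted p = 0.0485, edgeR), where 20.3% of features passed, and its call held in 9 of the 32. Each average covers datasets whose WT palmitate responses differed for Neat1. Of the single comparisons averaged for WT minus RM, only that of the mock groups of dataset B passed, for both RNAs. Of those averaged for palmitate, only the WT response of dataset B passed. Both use the WT mock libraries of dataset B, and none of the 32 alternatives left out that group.

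Malat1 and Neat1 were also compared with each other within each library, which needs no scaling between libraries. Malat1 had 3.45 to 7.33 counts for each Neat1 count in dataset A and 3.41 to 4.56 in dataset B. Per kilobase of feature, Malat1 was 10.3 to 21.8 times as abundant in dataset A and 10.2 to 13.6 times in dataset B. The length used for Neat1 is that of the long form, so counts from the short form are divided by more bases than that form has.

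In both datasets the RM palmitate libraries had the fewest Malat1 counts per Neat1 count. In dataset A the ratio under RM PKR was 5.05 ± 0.46 with mock treatment and 3.98 ± 0.47 with palmitate, and in dataset B it was 4.18 ± 0.24 and 3.44 ± 0.04 (SD, n = 3 each), with no overlap between the groups in either dataset. WT palmitate libraries had 6.30 ± 1.003 (dataset A) and 3.97 ± 0.11 (dataset B), above RM palmitate without overlap in both. WT mock was at 6.45 ± 1.19 and 4.19 ± 0.39 and overlapped WT palmitate and RM mock in both. An exact two-sided permutation test gave p = 0.1 for each of the 4 comparisons without overlap, the smallest value that 3 against 3 libraries allow, and an adjusted p of 0.2 over the 8 comparisons, so none could pass 0.05.

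Across libraries the levels of the pair went together. Over the 9 libraries of dataset B other than WT mock, which stands apart, log2 CPM of Malat1 and Neat1 had a Pearson r of 0.98 (permutation p = 2e-05) and a Spearman rho of 1.0 (permutation p = 3e-05), and r was 0.95 without the 2 libraries farthest from the median of Malat1. Over the 12 libraries of dataset A, r was 0.80 (permutation p = 0.00133) and rho was 0.83 (permutation p = 0.00174). There r was 0.61 (permutation p = 0.062, n = 10) without the 2 farthest libraries, and 0.79 (permutation p = 0.00745, n = 10) with total counts as the scale. On deviations from the group means r reached 0.88 (dataset A) and 0.995 (dataset B), and 0.71 and 0.99 without the 2 farthest libraries. With total counts those of dataset A were 0.83 and 0.49. The libraries of a dataset share the scaling step. The permutations took no account of the groups, so their p do not separate differences between group means from the spread within groups.

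**Figure D3:**
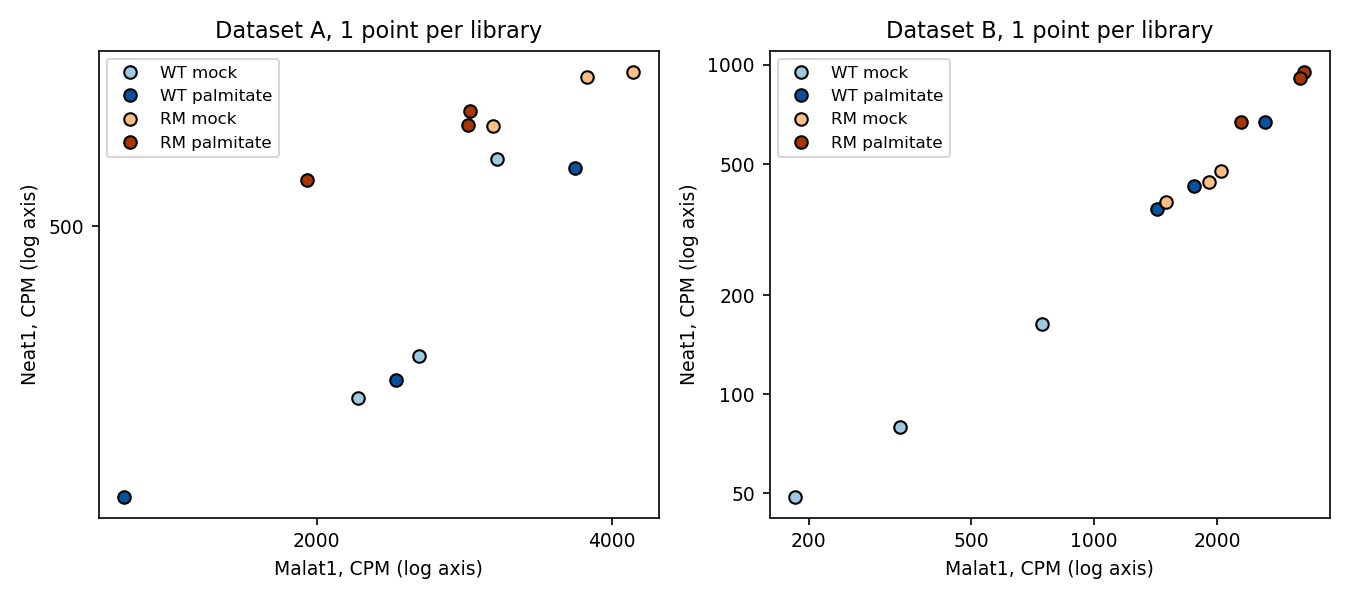
Neat1 against Malat1 in CPM, both on log axes, 1 point per library, dataset A on the left and dataset B on the right, coloured by group. In dataset B the 3 WT mock points sit alone at the lower left and the other 9 follow one line (r = 0.98), while the points of dataset A scatter more (r = 0.80).

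Dataset C gave counts by strand, with 1 library per group and so no replicate check. Nearly all counts of both RNAs lay on the minus strand, their own. In WT, Malat1 had 1673 sense and 0 antisense counts after mock treatment and 4349 sense and 0 antisense counts after palmitate. In RM it had 17563 sense and 1 antisense counts after mock treatment and 8772 sense and 0 antisense counts after palmitate. Neat1 had 229 and 574 sense counts in WT, with 0 antisense, and 2897 and 1896 in RM, with 0 and 1 antisense. Over all features, antisense counts made up 0.487% to 0.951% of a library. The 0 counts allow antisense shares, from 3 counts of the total, of up to 0.179% for Malat1 in WT mock and 1.31% for Neat1 in WT mock, the libraries with the fewest counts of each. Whether strand was used in counting datasets A and B is not stated in these sources.

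The palmitate and mock columns of dataset C were read from a header that names treatment and control, so a swap of that reading would invert the ratios that follow. With WT PKR, Malat1 was at 224 CPM in mock and 562 CPM in palmitate, a ratio of 2.51 (95% interval 2.37 to 2.65), and Neat1 at 30.7 and 74.2 CPM, a ratio of 2.42 (2.07 to 2.83). With RM PKR, Malat1 was at 1737 CPM in mock and 752 CPM in palmitate, a ratio of 0.433 (0.422 to 0.444), and Neat1 at 287 and 163 CPM, a ratio of 0.568 (0.536 to 0.602). The intervals are exact binomial and cover counting error only, since reads without molecular identifiers are not independent molecules. Both RNAs thus had a higher CPM after palmitate with WT PKR and a lower CPM with RM PKR in these 4 libraries, and TMM scaling kept those directions, with log2 ratios of 0.99 and 0.94 for WT and -1.40 and -1.01 for RM.

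Among the 12302 features with values in both tables and a mean of at least 10 counts, 5.86% had a larger WT ratio than Malat1 and 6.23% a larger one than Neat1. For RM, 2.43% had a smaller ratio than Malat1 and 5.32% a smaller one than Neat1. Between WT and RM libraries of dataset C the scaling turned the direction of the palmitate pair and moved the size of the mock pair. WT palmitate against RM palmitate gave log2 ratios of -0.42 for Malat1 and -1.13 for Neat1 by total counts, where the median of all features was -2.28, and of 1.90 and 1.19 after TMM scaling. WT mock against RM mock gave -2.95 for Malat1 and -3.22 for Neat1 by total counts, where the median of all features was -2.37, and -0.49 and -0.76 after TMM scaling.

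**Figure D4:**
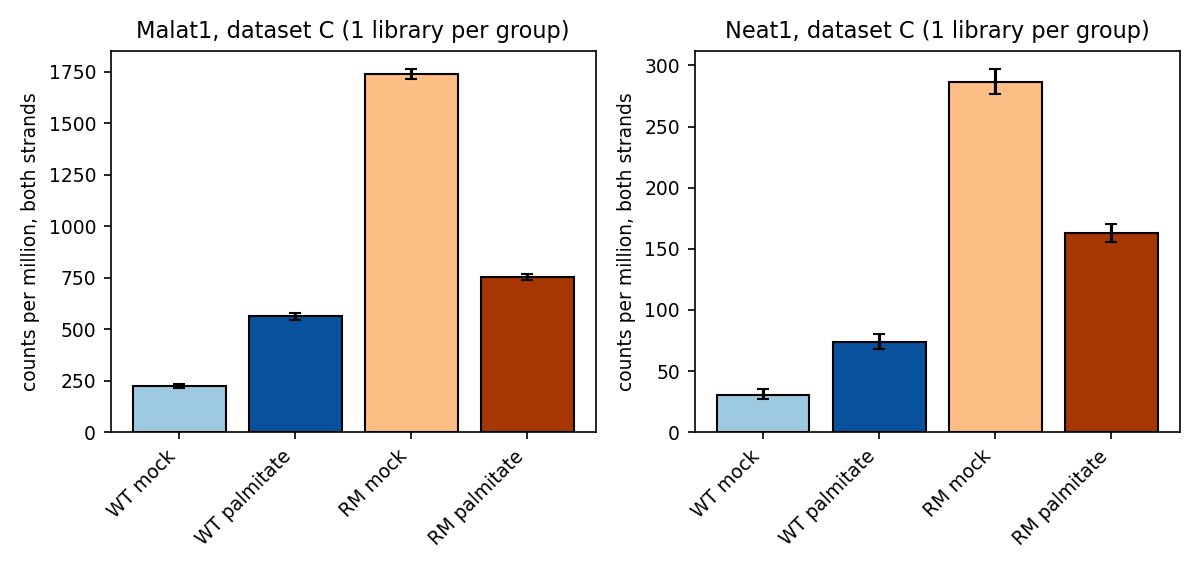
CPM of Malat1 (left) and Neat1 (right) on both strands together in the 4 libraries of dataset C, scaled by total counts; bars start at 0 and error bars are 95% Wilson intervals of counting error, with no replicates. Within WT the palmitate bar is the higher one (562 against 224 CPM for Malat1), and within RM the mock bar is (1737 against 752 CPM).

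The features whose levels followed these RNAs most closely were picked by Pearson r of log2 CPM over the 24 libraries of datasets A and B, after the mean of each dataset was subtracted, among 4829 features of at least 10 CPM on average in both. For Malat1 they were Meg3 (r = 0.973), Neat1 (r = 0.968) and Xist (r = 0.952). For Neat1 they were Meg3 (r = 0.988), Malat1 (r = 0.968) and Gabbr1 (r = 0.963). Meg3 is an imprinted long noncoding RNA, Xist the RNA that coats the inactive X chromosome, and Gabbr1 encodes a subunit of the GABA-B receptor. The libraries share the scaling and the WT mock group of dataset B, and r is given as a description.

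In dataset B, Meg3 in WT cells stood at 44.1 ± 24.3 CPM after mock treatment and at 253 ± 98.7 CPM after palmitate, and in RM cells at 203 ± 25.9 and 352 ± 74.0 CPM (SD, n = 3 each). Xist stood at 91.4 ± 26.9 and 280 ± 71.5 CPM in WT and at 332 ± 37.7 and 499 ± 61.8 CPM in RM. Gabbr1 was far lower, at 8.39 ± 3.18 and 28.0 ± 3.96 CPM in WT and at 36.2 ± 6.19 and 53.1 ± 7.21 CPM in RM. In each of these 3 genes WT mock was the lowest group mean of dataset B and RM palmitate the highest, an order that their choice by r over the same libraries favours.

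**Figure D5:**
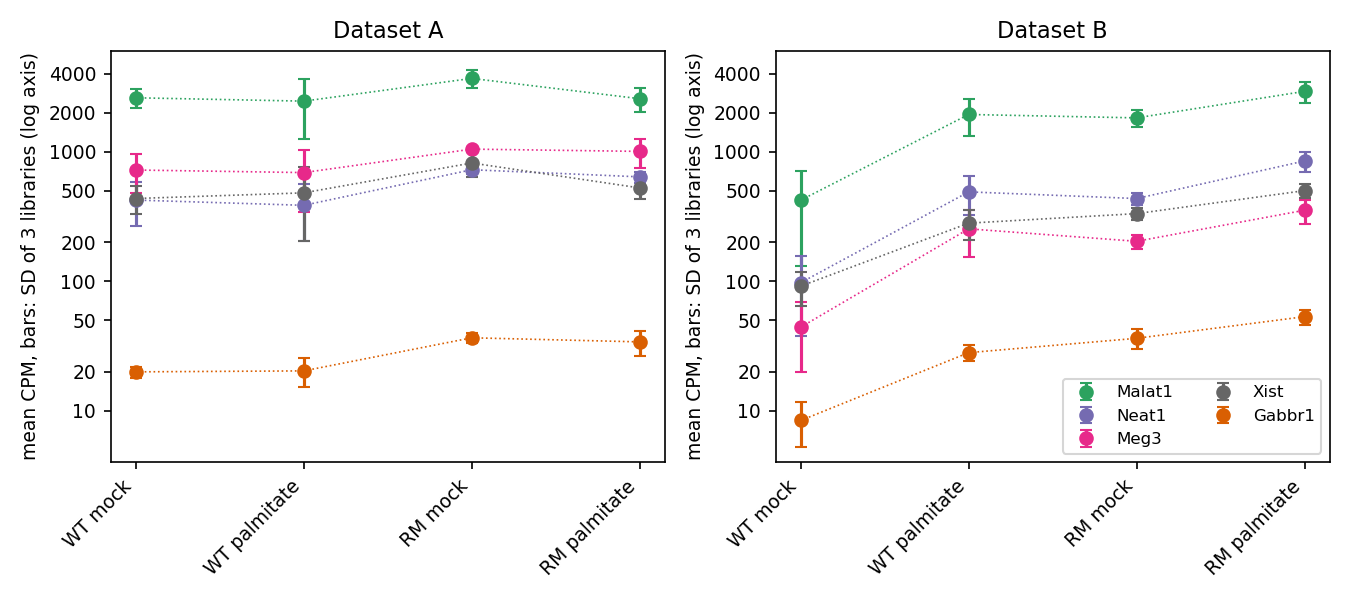
Mean CPM (log axis, bars are the SD of 3 libraries, dotted lines join the groups of one gene) of Malat1, Neat1, Meg3, Xist and Gabbr1 in the 4 groups of dataset A (left) and dataset B (right). In dataset B every gene has its lowest mean in WT mock and its highest in RM palmitate, for example 44.1 and 352 CPM for Meg3.

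A list of 24 RNAs, named as other nuclear long noncoding RNAs, was looked up, and 9 of them had a feature in the files. The list is broad and also holds H19, Rmrp and Rn7sk, and where its members lie in these cells was not tested. In dataset B, 3 of the 9 rose with palmitate under WT PKR and 0 fell, and the list's median log2 fold change was 0.35, against -0.05 over all features, 9.43% of which rose. The 3 were Meg3, 2.53 ± 0.41 (adjusted p = 0.00513, edgeR), Xist, 1.62 ± 0.21 (adjusted p = 0.000320, edgeR), and Ftx, 1.13 ± 0.29 (adjusted p = 0.0154, edgeR), a noncoding gene of the X-inactivation centre. The same 3 were lower in WT mock than in RM mock, at -2.20 ± 0.41 for Meg3, -1.86 ± 0.21 for Xist and -1.31 ± 0.29 for Ftx, where 7.88% of all features were lower, and the list's median was -0.86 against 0.02. The counts of 3 also held with total counts as the scale. Ftx beside WT palmitate and Meg3 beside RM mock were named after their values were seen.

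With RM PKR, 2 of the 9 passed the test for palmitate in dataset B. Both rose, Rmrp, the RNA of RNase MRP, at 1.55 ± 0.30 (adjusted p = 0.0122, edgeR), and Rn7sk, which holds the kinase P-TEFb inactive, at 2.86 ± 0.74 (adjusted p = 0.0487, edgeR). Under WT PKR the values of Rmrp and Rn7sk were 0.35 and 0.18 and did not pass, and the difference between the WT and the RM response passed for 0 of the 9. All 9 values were positive in RM, with a median of 0.76 against -0.01 over all features, 5.08% of which rose. With 1 RM palmitate library left, without replicates 2 and 3, the median was 0.39 against -0.01, 8 of 9 were positive and 0 passed, with Rmrp at 0.61 and Rn7sk at 1.64. Rn7sk has many near-identical copies in the genome, so its counts depend on how shared reads were assigned. In WT palmitate against RM palmitate, 4 of 9 were lower in WT, where 4.2% of all features were, namely H19, Xist, Rmrp and Rn7sk. With total counts as the scale 2 were, and without those 2 libraries 0 were, with the list's median at -0.54 against 0.02. Rmrp and Rn7sk were named there after their values were seen. In dataset A, 0 of the 9 passed in the palmitate or genotype comparisons by edgeR.

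Of 23 genes for proteins of the paraspeckle, the body that Neat1 builds, 3 rose and 2 fell with palmitate under WT PKR in dataset B, where 9.43% of all features rose and 6.12% fell, with a median of 0.12 against -0.05, and 0 passed under RM PKR. With total counts as the scale 0 rose and 2 fell under WT PKR. Smarca4, a chromatin remodeller, rose by 0.56 ± 0.14 and Hnrnph3, a splicing regulator, by 0.71 ± 0.19 (adjusted p = 0.0114 and 0.0166, edgeR). Sfpq, one of the core paraspeckle proteins, rose by 0.46 ± 0.12, and Nudt21 and Rbm7 were at -0.58 ± 0.16 and -0.69 ± 0.18 (named after their values were seen). In WT against RM mock, 1 of the 23 was higher in dataset B, where 6.24% of all features were, and 2 were lower, against 7.88%. In dataset A, where 3.03% of all features were higher, 2 of the 23 were, Nudt21 at 2.34 ± 0.31 (adjusted p = 0.000121, edgeR) and Smarca4 at 1.38 ± 0.38 (adjusted p = 0.0459, edgeR).

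Of 24 genes for proteins of nuclear speckles, the bodies where Malat1 gathers, 7 rose and 0 fell with palmitate in dataset B under WT PKR, where 9.43% of all features rose, with a median of 0.26 against -0.05. Under RM PKR 7 rose and 0 fell as well, where 5.08% of all features rose, with a median of 0.35 against -0.01. With total counts as the scale 1 rose under WT PKR, with a median of 0.22 against -0.09, and under RM PKR 0 rose and 1 fell, with a median of -0.03 against -0.38. With 1 RM palmitate library left, without replicates 2 and 3, 0 passed under RM PKR, 20 of 24 were positive and the median was 0.23 against -0.01. Under WT PKR the splicing factor Srsf5 rose by 0.77 ± 0.14 (adjusted p = 0.00196, edgeR) and the apoptosis-linked splicing protein Acin1 by 0.65 ± 0.14 (adjusted p = 0.00529, edgeR). Under RM PKR the kinase Prpf4b rose by 0.52 ± 0.11 and the splicing cofactor Pnn by 0.63 ± 0.14 (adjusted p = 0.0171 and 0.0189, edgeR). In WT against RM mock, Srrm2 and Son, the large proteins that scaffold the speckle, were lower by edgeR at -0.69 ± 0.18 and -0.62 ± 0.17, and were the 2 calls among the 24, where 7.88% of all features were lower. With total counts as the scale 0 of the 24 passed there. In WT against RM palmitate of dataset B, 5 of the 24 were lower and 0 higher, where 4.2% and 3.62% of all features were. Srrm2 (-0.80 ± 0.18) and Pnn (-0.54 ± 0.14) had the smallest p (adjusted p = 0.0206 and 0.0340, edgeR). Total counts as the scale moved the median of all features by 0.36 in that comparison.

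Genes that cut or bind the 3′ end of MALAT1 were a list of 14, of which 13 could be tested in dataset B. Under WT PKR, 1 rose and 1 fell with palmitate, near the 9.43% and 6.12% of all features. These were Pop1 by 0.40 ± 0.13 and Rpp30 at -0.86 ± 0.22 (adjusted p = 0.0419 and 0.0151, edgeR), both protein subunits of RNase P, and Pop1 did not pass with total counts as the scale (0.36, adjusted p = 0.350, edgeR). Under RM PKR the RNA subunit of RNase P, Rpph1, rose by 2.77 ± 0.60 (adjusted p = 0.0317, edgeR), and it was lower in WT than in RM palmitate at -2.98 ± 0.60 (adjusted p = 0.0260, edgeR). It was the 1 call of the 13 in each, where 5.08% of all features rose and 4.2% were lower. With 1 RM palmitate library left, without replicates 2 and 3, Rpph1 was at 1.16 and -1.35 and 0 of the 13 passed in either comparison. The list's median was -0.06 under WT and -0.12 under RM, against -0.05 and -0.01 over all features.

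The protein-coding neighbours of the pair on chromosome 19 were tested as a list, of which 15 had values in dataset B. With palmitate under WT PKR 4 of the 15 rose, where 9.43% of all features did, Ehbp1l1 by 0.95 ± 0.15 and Ltbp3 by 0.66 ± 0.12 with the smallest p (adjusted p = 0.000899 and 0.00230, edgeR), and 0 fell, while 2 rose with total counts as the scale. In WT against RM mock, 3 were higher, with Fam89b (0.61 ± 0.14) and Cdc42ep2 (0.66 ± 0.15) at the smallest p, and 1 was lower, where 6.24% and 7.88% of all features were, and with total counts as the scale 2 were higher and 0 lower. In WT against RM palmitate all 15 were positive, with a median of 0.34 against -0.0027 over all features, and 5 were higher, where 3.62% of all features were. The smallest p there were those of Cdc42ep2 (1.17 ± 0.19) and Capn1 (0.79 ± 0.13), with adjusted p of 0.00310 and 0.00320 by edgeR, while Malat1 and Neat1 were at -0.59 and -0.79 and did not pass. With total counts 9 of the 15 were higher, and with 1 RM palmitate library left 0 passed and all 15 were positive. Under RM PKR 1 neighbour rose and 2 fell with palmitate, where 5.08% and 2.45% of all features did, with Map3k11 at 0.81 ± 0.17 and Cdc42ep2 at -0.88 ± 0.19 (adjusted p = 0.0131 and 0.0156, edgeR). Frmd8, the nearest neighbour of Neat1, had a WT palmitate response of 0.11 ± 0.20 in dataset B (adjusted p = 0.728, edgeR). Averaged over treatments and datasets it was higher in WT than in RM by 0.48 ± 0.11 (adjusted p = 0.00159, edgeR), the opposite direction to Neat1.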

How the data were processed

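RNA recovered with PKR was sequenced in 24 libraries of datasets A and B and 4 of dataset C. The submitters' processing notes list CASAVA (1.7.0 and 1.8.2), Novoalign and the build mm9. How features were counted, and whether strand was used, is not stated in these sources. The authors deposited whole-number counts per feature and library, by strand in dataset C, together with log2 ratios of their own comparisons. The deposited score for the false discovery rate has no stated scale. Of the per-sample columns, 32 of counts were used and 52 were not.

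The table of each dataset was fitted whole with edgeR 4.0.16 in R 4.3.3 (filterByExpr, TMM, 1 mean per group, robust quasi-likelihood test, two-sided), with Benjamini-Hochberg adjustment over all features tested and a threshold of 0.05. The 24 libraries were also fitted together with 8 group means. The script was tested on simulated data. Ratios of counts were compared by exact permutation over libraries. Alternatives were DESeq2 1.42.0, other scalings and filters, a replicate block and left-out libraries. The correlations without WT mock of dataset B, the rescaled list counts and the restriction of dataset C to features in both tables were added after seeing the data. The p-values measure the spread between libraries that the labels call biological replicates.

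Malat1 and Neat1, the gene lists and the tests were chosen with earlier results of these data known. Named beside the pair were features within 10 kb, up to 2 genes per list and comparison with the smallest p past the threshold, and the 3 features most alike in level. Gene names and sequences came from GENCODE M21, whose coordinates were not used. Same-numbered libraries deviated together with r from -0.22 to 0.32 in dataset A and -0.13 to 0.27 in dataset B. The r was over 0.1 in 4 of 18 pairs in each dataset. Libraries of different numbers were not compared, so these r do not settle pairing, and the main fits did not use the numbers.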

Additional observations from a re-analysis of the deposited data

Results flagged for a closer look

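The WT palmitate response of Neat1 differed between datasets, by 2.41 ± 0.50 on the log2 scale (dataset B minus dataset A, adjusted p = 0.0417, edgeR with Benjamini-Hochberg adjustment over 12683 features, 3 libraries per group). All 3 WT palmitate libraries of dataset B lay above all 3 WT mock libraries, while the groups overlapped in dataset A. Separation of this kind was not counted over all features. The call held in 10 of 19 alternatives. What differs between the datasets beyond the mark 2hr is not given in the labels, and dataset and handling cannot be told apart.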

How the results depend on the processing

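Of the results in datasets A and B with replicates, the WT palmitate response and the WT against RM mock difference of dataset B kept their direction in all alternatives tried, and their calls in 13 of 14 each. The exception was the fit of only the 6 libraries compared, with the WT palmitate response at 2.21 for Malat1 and 2.34 for Neat1 and WT against RM mock at -2.12 and -2.16. That fit also put Neat1 past the threshold in WT against RM mock of dataset A (-0.79, adjusted p = 0.0452, edgeR) and in RM palmitate against RM mock of dataset B (0.97, adjusted p = 0.0464, edgeR). The labels do not say whether replicate numbers pair the samples, and the main fits did not take them as pairing. After TMM scaling, replicate 1 was the lowest library of every group of dataset B for both RNAs. With the replicate block, Neat1 passed in RM palmitate against RM mock (0.95, adjusted p = 0.0193, edgeR) and in WT against RM palmitate (-0.84, adjusted p = 0.0333, edgeR) of dataset B, and Malat1 passed in dataset B minus dataset A for the WT palmitate response (2.48) and for WT against RM mock (-1.81). The number of features called under the block was 2021 against 1938 for the WT palmitate response of dataset B and 126 against 24 for its difference between datasets.

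The averaged palmitate response of Malat1 was not past the threshold with DESeq2 size factors (0.57), total counts (0.44), a mean of at least 50 counts (0.58), no robust estimation (0.57) or without replicates 2 and 3 of RM palmitate B together (0.49), and ran from 0.46 to 0.75 with 1 library left out, called in 6 of 24. The difference of the WT palmitate response between datasets passed for Malat1 with total counts (2.38), DESeq2 (2.26) and no low-count filter (2.20), and ran from 1.87 to 2.93 with 1 library left out. For Neat1 it did not pass without robust estimation (2.41), and ran from 2.06 to 3.01 with 1 library left out, called in 4 of 12. The interaction of dataset B ran from 1.18 to 2.24 for Malat1 and from 1.06 to 1.99 for Neat1 with 1 library left out. WT against RM mock in dataset B minus dataset A ran from -2.28 to -1.22 for Malat1 and from -1.94 to -0.999 for Neat1, each called only without replicate 3 of WT mock B among the left-out libraries.

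Signs turned only among values that had not passed, or that had no test. With 1 library left out, the WT palmitate response of dataset A ran from -0.47 to 0.28 for Malat1, with 0.09 without replicate 3 of WT mock, and from -0.54 to 0.25 for Neat1, with 0.02 and 0.18 without replicates 2 and 3 of WT palmitate. WT against RM palmitate of dataset A ran from -0.48 to 0.27 for Malat1. The interaction of dataset A for Neat1 was -0.14 with total counts and -0.048 with a mean of at least 50 counts, and ran from -0.38 to 0.42. Dataset B minus dataset A for WT against RM palmitate was 0.29 for Malat1 and 0.76 for Neat1 with total counts, and for Neat1 0.22 without replicates 2 and 3 of RM palmitate B together and from -0.41 to 0.35 with 1 library left out. The log2 ratio of Malat1 to Neat1 counts, WT palmitate minus WT mock in dataset A, ran from -0.19 to 0.089 with 1 library left out, and that of WT mock minus RM mock in dataset B from -0.064 to 0.069. In dataset C, TMM scaling turned WT against RM palmitate to 1.90 for Malat1 and 1.19 for Neat1. The cause of these changes was not tested.

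Counts of features called moved more than those of the pair. Over the alternatives they ran from 923 to 2154 for the WT palmitate response of dataset B, 37 to 2671 for the RM palmitate response, 736 to 2032 for WT against RM mock and 16 to 2500 for WT against RM palmitate. In dataset A they ran from 6 to 197, 5 to 349, 200 to 1552 and 133 to 840 for the same 4 comparisons, and the interaction from 0 to 88 in dataset A and 0 to 903 in dataset B. Total counts as the scale turned the share of higher calls from 67.4% to 17.8% for the RM palmitate response and from 46.3% to 82.3% for WT against RM palmitate in dataset B, and from 66.7% to 100% and from 72.7% to 25.7% in dataset A. It turned it from 53.6% to 30.4% for the averaged palmitate effect and from 48.6% to 34.4% for the averaged WT minus RM. Depth limits RM palmitate replicate 2 of dataset A most, with 831 counts of Malat1 and 199 of Neat1.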
